A study of Mus musculus with 14 samples.

Results

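Cytochrome P450 genes were taken as all genes whose mouse symbol is Cyp followed by a family number, a subfamily letter and a member number. This gave 94 of the 55416 genes in the deposited tables, with pseudogenes left out by the pattern. RNA was sequenced from 14 libraries of lung and of gastrocnemius, a calf muscle, in a series that sought targets shared by cancer-associated muscle wasting and the muscle side effects of immunotherapy. All mice were male C57BL/6 (C57BL/6NCrlOri), and the labels name no allele or transgene in any group. The tumour-bearing mice (TB) had received 5000000 cells of the KrasIKKaL line into the trachea at 6 to 8 weeks of age, so the model rests on 1 cell line. They gave 5 lung and 3 muscle libraries, and the control mice (CON) gave 3 lung and 3 muscle libraries. The sources used here do not say what the controls received, when tissue was taken or whether each library is a separate animal, so every p-value reflects spread between libraries that may be technical.

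P450 enzymes are haem proteins that insert oxygen into small, mostly fat-soluble molecules, using electrons handed over by P450 oxidoreductase in the endoplasmic reticulum or by ferredoxin in mitochondria. Subfamilies that oxidise drugs and pollutants are known above all from liver and gut, and in mouse lung from club cells of the small airways. Others make or break down signals: fatty acid derivatives, bile acids and oxysterols, steroid hormones, active vitamin D and retinoic acid. By these roles, 49 members were placed in xenobiotic subfamilies, 26 in fatty acid subfamilies, 6 with sterols and bile acids, 6 with steroid hormones, 3 with vitamin D and 3 with retinoic acid, while Cyp20a1, an enzyme without a known substrate, stayed unclassified.

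Libraries held 32476194 to 44169410 counts in muscle and 47947363 to 61087315 in lung. Of the 94 members, 39 had enough counts to be tested in lung and 20 in muscle, all 20 of which were also tested in lung. Among the other 55, 21 were at 0 in all 14 libraries and 34 had some counts, with at most 110 in any group. The 21 included Cyp7a1, the rate-limiting enzyme of bile acid synthesis in liver, Cyp11b1 and Cyp11b2, the last enzymes of corticosteroid synthesis in the adrenal, and Cyp19a1, the aromatase that makes oestrogens. Tissue labels were checked on marker genes: 8 skeletal muscle genes summed to 79400 to 134000 counts-per-million (CPM) in muscle and 1.77 to 19.5 in lung, and Sftpc, the surfactant gene of alveolar type 2 cells, was at 0 in all muscle libraries. In lung, 9 alveolar type 2 genes summed to 24700 to 26900 CPM in the controls but only to 154 to 1250 in the tumour-bearing libraries.

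Levels are given as transcripts-per-million (TPM), which divide by transcript length and can be compared between genes. In control lung the 94 genes summed to 2653, 2599 and 2586 TPM, and in control muscle to 54.5, 38.6 and 37.8 TPM. Lung P450 RNA was dominated by Cyp2f2, the club cell enzyme that activates naphthalene, with 61.5% of that sum. Cyp4b1, which oxidises fatty acids and plant furans, took 17.3% and Cyp2b10, the classic phenobarbital-inducible form, 8.7%. In control muscle, Cyp27a1, the mitochondrial sterol hydroxylase that starts the acidic route of bile acid synthesis, took 43.4% and Cyp4f13, a fatty acid hydroxylase, 21.1%. A mean of at least 10 TPM was reached by 14 members in control lung and by Cyp27a1 alone in control muscle.

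In tumour-bearing lung the summed level was 331, 192, 234, 376 and 238 TPM, far below the 3 controls and with no overlap. In tumour-bearing muscle it was 105, 77.6 and 56.7 TPM, above the 3 controls, the highest of which had 54.5 TPM. Cyp27a1 alone had a mean of 18.9 TPM in control muscle and 56.8 TPM in tumour-bearing muscle. The xenobiotic subfamilies held 1991 to 2028 TPM in control lung and 65.6 to 255 TPM in tumour-bearing lung, or 75.7% to 78.0% and 34.2% to 67.6% of the sum. Steroid hormone enzymes went the other way in lung, with at most 0.4 TPM in the controls and 5.8 to 40.7 TPM in tumour-bearing mice. In muscle the sterol class, nearly all of it Cyp27a1, held 43.5% to 46.9% of the sum in the controls and 62.6% to 79.9% in tumour-bearing mice. These sums and shares describe the libraries and carry no test.

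**Figure D1:**
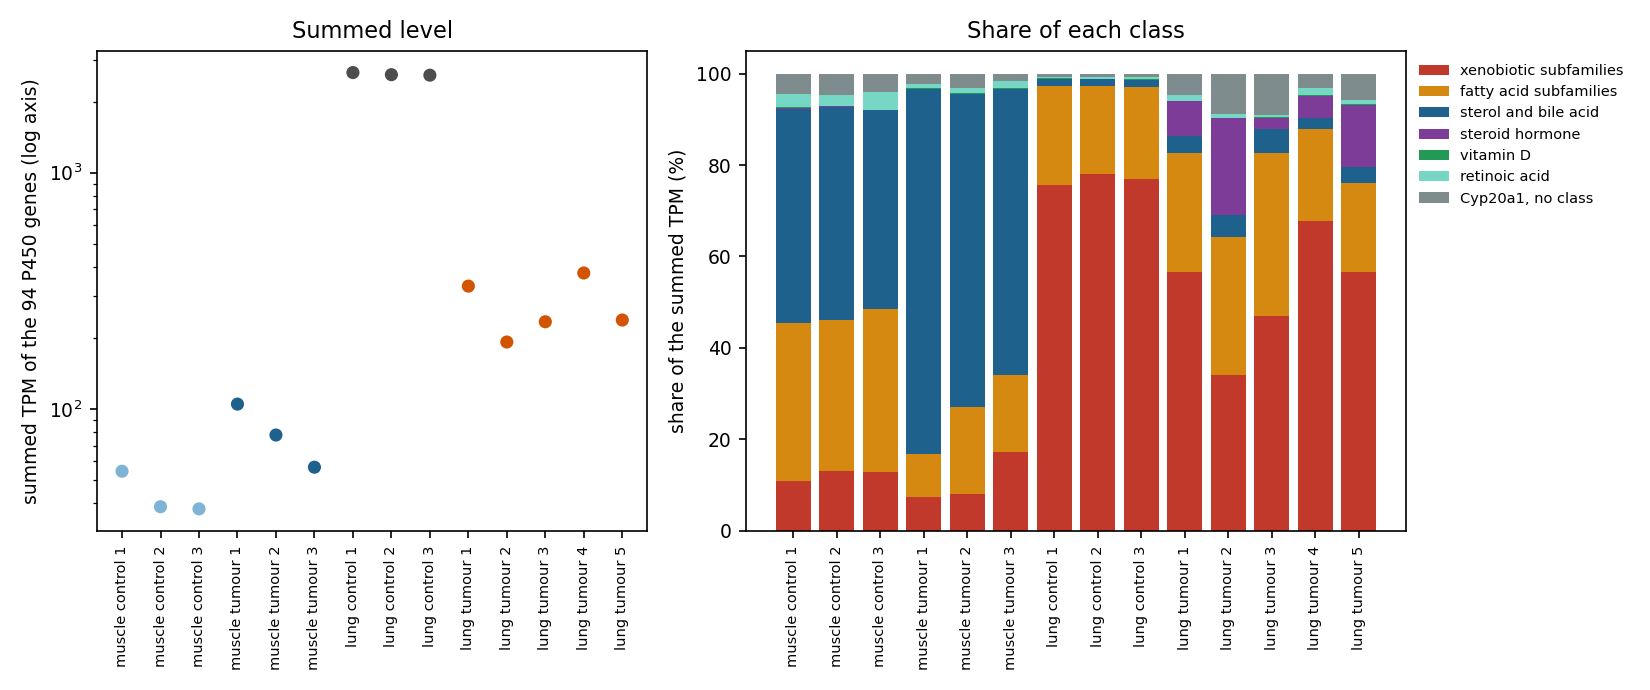
Left, summed TPM of the 94 P450 genes in each of the 14 libraries (log axis). Right, the percentage of that sum in each class, as stacked bars per library; the xenobiotic share (red) is 75.7% to 78.0% in control lung and 34.2% to 67.6% in tumour-bearing lung, and the sterol share (blue) is largest in muscle.

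The lung comparison addressed how lung with tumours differs from control lung. Cyp2f2, Cyp4b1 and Cyp2b10, the 3 highest P450 transcripts of control lung, were far lower, while Cyp2s1, the next highest, did not pass the test. Cyp3a13, Cyp11a1 and Cyp21a1, low or nearly absent in control lung, were higher in all 5 tumour-bearing libraries. Of the 39 members tested, 11 rose, 19 fell and 9 did not pass an adjusted p of 0.05 in edgeR's quasi-likelihood test, fitted on all genes. Lung differed broadly, since 59.7% of all genes tested were called, 30.4% higher and 29.3% lower, and among the tested members the shares were 28.2% higher and 48.7% lower. Members high in only 1 group enter the test through that group, so 24 that exceeded the count filter in both groups were also counted. Of these 24, 4 rose, 13 fell and 7 did not pass (16.7% and 54.2%). No share of all genes above the filter in both groups was counted, so these percentages have no like value beside them. The median log2 fold change of the tested members was -0.99, against 0.07 over all genes. Groups did not overlap in 10 members that were higher and 20 that were lower, where 30.9% and 32.1% of all genes separated in these directions. With limma on log2(TPM + 1) the calls were 6 higher and 22 lower, on a scale where the median of all genes was -0.23. Fold changes below are edgeR's, from counts with TMM scaling, and need not equal ratios of the TPM printed beside them.

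**Figure D2:**
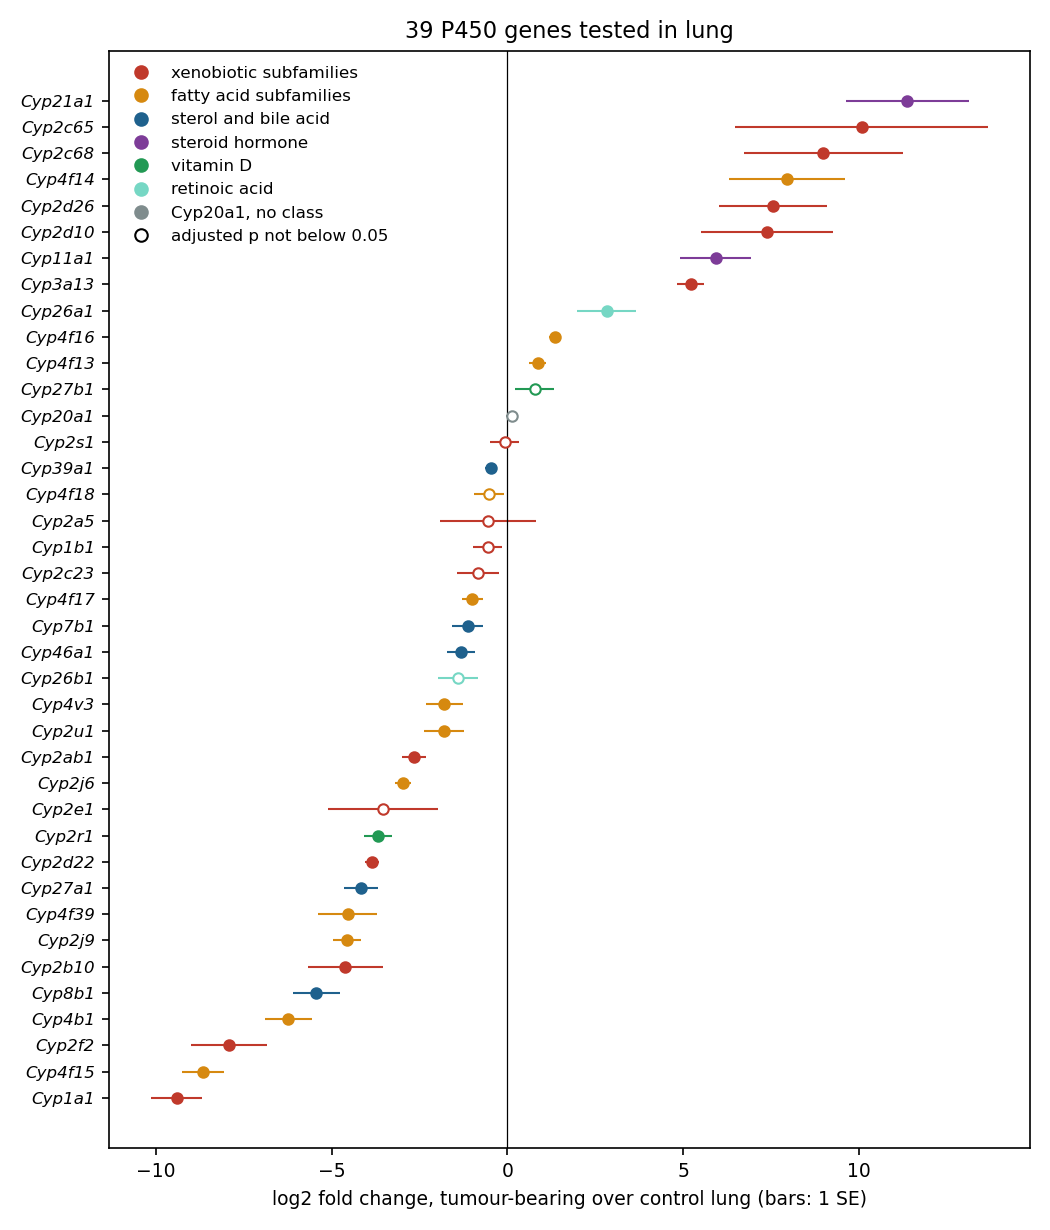
Log2 fold change of tumour-bearing over control lung for the 39 P450 genes tested (points, with bars of 1 SE), coloured by class and ordered by size. Filled points passed an adjusted p of 0.05: 11 lie to the right and 19 to the left of 0, and the 5 tested sterol and bile acid genes (blue) all lie to the left.

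Among the 49 members of xenobiotic subfamilies, 15 were tested: 5 rose, 5 fell and 5 did not pass. Of all genes tested in lung 30.4% rose and 29.3% fell, so this class lay near those shares. However, Cyp2d26, Cyp2d10, Cyp2c68 and Cyp2c65, which rose, entered the test only through the tumour-bearing group. Cyp1a1 and Cyp2ab1, which fell, entered only through the controls. How they entered largely set the direction of these members, so the class counts carry no reading of their own. Cyp2f2 had 1572, 1641 and 1607 TPM in the 3 controls and 2.60, 0.79, 10.2, 10.9 and 0.49 TPM in the 5 tumour-bearing libraries. All 5 lay far below the 3 controls, with a log2 fold change of -7.92 (SE 1.08, adjusted p = 0.000259), or 241-fold lower; limma-voom put it at -8.83. Cyp2b10 went from 249.1, 219 and 214 TPM to 4.97, 0.07, 11.6, 14.2 and 3.64 TPM (log2 fold change -4.61, SE 1.06, adjusted p = 0.00476, or -6.05 by limma-voom), and its lowest library, tumour-bearing 2, was also among the lowest for Cyp2f2. Cyp1a1, the enzyme of polycyclic hydrocarbon oxidation whose gene is switched on by the aryl hydrocarbon receptor, had 24.5, 20.1 and 21.7 TPM in the controls and 0.01, 0.01, 0.09, 0.01 and 0.00 TPM in the tumour-bearing libraries. Its log2 fold change was -9.40 (SE 0.73, adjusted p = 1.31e-05), and it rests on 14 counts in all 5 tumour-bearing libraries together. Without tumour-bearing 3, which holds 11 of these counts, the value was -11.07.

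Cyp2d22, often compared with the human 2D drug-oxidising enzyme, fell with little spread: 42.4, 36.0 and 37.1 TPM in the controls, and 1.55, 1.5, 2.24, 2.24 and 1.39 TPM in tumour-bearing lung (log2 fold change -3.84, SE 0.20, adjusted p = 2.31e-06). Cyp2ab1 also fell, from 1.07 to 1.13 TPM to 0.07 to 0.17 TPM (log2 fold change -2.66, SE 0.35, adjusted p = 0.000199). Cyp2s1, an epithelial member that is also a target of the aryl hydrocarbon receptor, had 93.5, 78.3 and 79.5 TPM in the controls and 56.0, 28.4, 31.8, 111 and 58.95 TPM in tumour-bearing lung, groups that overlapped, with a log2 fold change of -0.08 (SE 0.42, adjusted p = 0.88). Of 17 alternatives, 1, the replicate block, called it (-0.77, adjusted p = 0.0263). This left Cyp2s1, whose naming here came after its values were seen, as the highest P450 transcript of tumour-bearing lung, with 20.9% of the sum.

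The 5 xenobiotic members that rose were Cyp3a13, Cyp2d26, Cyp2d10, Cyp2c68 and Cyp2c65. Cyp3a13, a drug-oxidising member of the 3A subfamily, rose in all 5 libraries, from 2.25, 1.88 and 1.78 TPM to 67.7, 27.2, 46.0, 62.7 and 64.3 TPM (log2 fold change 5.22, SE 0.38, adjusted p = 9.37e-06). Cyp2d26, known from liver, had 0.05, 0.06 and 0.00 TPM in the controls and 16.2, 0.78, 2.74, 8.92 and 0.76 TPM in tumour-bearing lung (log2 fold change 7.57, SE 1.53, adjusted p = 0.00244, or 6.80 without tumour-bearing 1). In the same cluster on chromosome 15, Cyp2d10 went from 1 count in the 3 controls to 344 counts in the 5 tumour-bearing libraries, a ratio of 203 after scaling to depth (exact 95% interval 36.2 to 8040, counting error only). Its adjusted p was 0.00777, its fitted log2 fold change was 7.39 with all libraries and 9.19 without control 3, and without tumour-bearing 1, 4 or 5 it fell under the count filter. Within this 2D cluster Cyp2d22 thus fell while Cyp2d10 and Cyp2d26 rose.

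Both 2C members were carried mainly by tumour-bearing 1. Cyp2c65, known from the intestine, had 0 counts in the controls and 7.21, 0.00, 0.21, 0.31 and 0.07 TPM in tumour-bearing lung, at least 147-fold higher over the group against a floor of 3 counts. Its groups overlapped at 0, its adjusted p was 0.0447, and the call was lost with limma-voom (adjusted p = 0.0783) and without control 1, 2 or 3 (adjusted p = 0.0928, 0.0908 and 0.0897). Without tumour-bearing 1, 3 or 4 it no longer met the count filter. Cyp2c68 had 2 counts in the controls and 2045 in tumour-bearing lung, a ratio of 604 (exact 95% interval 167 to 4990), with 20.3, 0.65, 1.03, 2.40 and 0.14 TPM across the 5 libraries (adjusted p = 0.00753). Its log2 fold change of 8.99 became 6.83 without tumour-bearing 1 and 11.54 without control 1, both past the threshold. On the log2(TPM + 1) scale limma called neither Cyp2c68 (adjusted p = 0.125) nor Cyp2c65 (0.332), nor Cyp2d10 (0.0672). Part of the Cyp2c65 and Cyp2c68 values is uncertain, because 19.8% of the 100-base stretches in Cyp2c68 transcripts also occur in other genes, mostly Cyp2c40, and 7.82% of those in Cyp2c65 occur in Cyp2c66. The share found in any other gene was 11.7% for Cyp2d10 (8.41% in Cyp2d11) and 12.1% for Cyp2a5 (8.08% in Cyp2a4), and below 10% for the remaining tested members.

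The sequences just before the start sites of 4 members are printed because they show a short run, CAAAGTCCA, that recurs in the promoters of Cyp2c genes, and the site class read by the aryl hydrocarbon receptor in Cyp1a1. They are the 150 bases before the start in RefSeq's GRCm38.p6 table, given 5′ to 3′ on the gene's strand, at chr19:39060856-39061005 (+) for Cyp2c65, chr19:39741102-39741251 (-) for Cyp2c68, chr9:121916306-121916455 (-) for Cyp8b1 and chr9:57697463-57697612 (+) for Cyp1a1. Capitals mark CAAAGTCCA, a known form of the site of HNF4 factors, in the first 3 and GCGTG, the core that the aryl hydrocarbon receptor reads, in Cyp1a1.
Cyp2c65: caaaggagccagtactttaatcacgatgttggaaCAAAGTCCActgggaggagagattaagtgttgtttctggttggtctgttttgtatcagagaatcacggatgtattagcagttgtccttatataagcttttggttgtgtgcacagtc
Cyp2c68: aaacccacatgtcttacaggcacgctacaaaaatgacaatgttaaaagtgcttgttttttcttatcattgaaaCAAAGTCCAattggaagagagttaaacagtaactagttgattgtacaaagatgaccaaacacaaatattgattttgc
Cyp8b1: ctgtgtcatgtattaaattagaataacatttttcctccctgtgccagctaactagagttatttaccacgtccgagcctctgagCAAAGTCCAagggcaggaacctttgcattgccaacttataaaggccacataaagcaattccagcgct
Cyp1a1: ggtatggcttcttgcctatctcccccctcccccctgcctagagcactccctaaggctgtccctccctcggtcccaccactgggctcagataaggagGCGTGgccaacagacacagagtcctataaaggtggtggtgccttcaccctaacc

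The table held promoters (250 bases before to 50 after the start) for 73 of the 94 members, 83 in all, among 32851 promoters. On both strands, CAAAGTCCA occurred in 0.47% of all promoters and in 9 members: Cyp2c40, Cyp2c65, Cyp2c67, Cyp2c68, Cyp2c69, Cyp2c70, Cyp3a11, Cyp3a16 and Cyp8b1. In lung, 2 of these rose (Cyp2c65 and Cyp2c68), Cyp8b1 fell, and 6 had too few counts to be tested. GCGTG occurred in 32.4% of all promoters and in 16 members, among them Cyp1a1 and Cyp1b1, and its longer form TNGCGTG in 5.07% of all and in Cyp2c68 alone. The forkhead forms TGTTTAC (3.65% of all promoters) and TGTTTGC (5.07%) occurred in 7 and 4 members, with TGTTTGC in the promoter of Cyp11a1. The looser C/EBP form TTGCNNCAA (2.08%) occurred in 2 members that were not tested. No member promoter held TTGCGCAA (C/EBP, 0.18% of all), CAAGGTCA or TCAAGGTCA (NR5A factors, 1.56% and 0.42%), the direct repeat of nuclear receptors (0.02%) or the HNF1 palindrome (0.01%). Of these 11 motifs, GCGTG is contained in TNGCGTG and CAAGGTCA in TCAAGGTCA. A match is a description of letters, not of binding.

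The 5 tested xenobiotic members that did not pass were Cyp2s1, Cyp2a5, Cyp2e1, Cyp1b1 and Cyp2c23. Cyp2a5, the coumarin hydroxylase, had 12.3, 19.6 and 18.9 TPM in the controls, and 3.94, 0.25, 0.82, 36.2 and 1.53 TPM in tumour-bearing lung. Tumour-bearing 4 was above every control and the other 4 below them. The log2 fold change was -0.55 (adjusted p = 0.746), and it passed without tumour-bearing 4 (-3.38, adjusted p = 0.00519), with limma-voom (-2.81, adjusted p = 0.0444) and with the replicate block (-4.13, adjusted p = 0.0132). Cyp2e1, the ethanol-oxidising form, had 5.34 to 6.25 TPM in the controls and at most 0.07 TPM in 4 tumour-bearing libraries, with 1.84 TPM in tumour-bearing 2. Its log2 fold change was -3.54 (adjusted p = 0.0775), and 4 of 17 alternatives called it: limma-voom (-6.88, adjusted p = 0.000723), limma on log2(TPM + 1) (-2.44, adjusted p = 0.000302), all 14 libraries in 1 fit (-3.61, adjusted p = 0.0275) and the fit without tumour-bearing 2 (-8.22, adjusted p = 4.73e-05). Cyp1b1, which oxidises oestradiol and hydrocarbons outside the liver, had 3.62 to 3.99 TPM against 0.82 to 3.64 TPM (adjusted p = 0.252). Cyp2c23, an arachidonic acid epoxygenase, had 0.35 to 0.47 TPM against 0.03 to 0.33 TPM (adjusted p = 0.253). These, like Cyp2s1, were named after their values were seen, apart from Cyp1b1.

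Among the 26 fatty acid members, 3 rose, 8 fell, Cyp4f18 did not pass and 14 were not tested. The shares of all genes tested were 30.4% higher and 29.3% lower. Cyp4f14 entered the test only through the tumour-bearing group, and Cyp4f15 and Cyp4f39 only through the controls. Cyp4b1 fell from 488, 423 and 444 TPM to 6.42, 0.56, 7.23, 5.54 and 2.34 TPM, a 75.4-fold lower level on the fitted scale (log2 fold change -6.24, SE 0.67, adjusted p = 7.05e-05). As for Cyp2f2 and Cyp2b10, its lowest or next lowest value was in tumour-bearing 2. The 2J enzymes, which make epoxides of arachidonic acid, fell together: Cyp2j6 from 5.52 to 6.00 TPM to 0.40 to 0.69 TPM (log2 fold change -2.97, adjusted p = 1.1e-05) and Cyp2j9 from 3.85 to 5.56 TPM to 0.07 to 0.24 TPM (log2 fold change -4.56, adjusted p = 2.67e-05). Cyp4v3, a fatty acid hydroxylase whose human counterpart is mutated in a retinal dystrophy, fell from 17.1 to 19.1 TPM to 0.70 to 6.76 TPM (adjusted p = 0.0148). Cyp2u1, a hydroxylase of long fatty acids, fell from 0.55 to 0.71 TPM to 0.07 to 0.41 TPM (adjusted p = 0.0221). The Cyp2u1 call was lost when control 1, 2 or 3 was left out (adjusted p = 0.0620, 0.0522 and 0.0659), and its log2 fold change of -1.81 was -2.45 without tumour-bearing 1.

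The remaining calls of this class lie in the Cyp4f cluster of chromosome 17, whose enzymes hydroxylate leukotrienes and long fatty acids, and neighbours there went in opposite directions. In chromosomal order, Cyp4f39 and Cyp4f17 fell, Cyp4f16 rose, Cyp4f37 and Cyp4f40 were not tested, Cyp4f15 fell, and Cyp4f14 and Cyp4f13 rose. Cyp4f15 had 6.95, 6.27 and 5.76 TPM in the controls and at most 0.02 TPM in tumour-bearing lung (log2 fold change -8.66, SE 0.59, adjusted p = 6.93e-06), 4 counts in all. Next to it, Cyp4f14, a leukotriene hydroxylase of liver and gut, had 0.02, 0.01 and 0.04 TPM in the controls and 10.1, 0.38, 14.2, 0.76 and 1.25 TPM in tumour-bearing lung (log2 fold change 7.95, SE 1.65, adjusted p = 0.00278, or 7.22 without tumour-bearing 3 and 6.73 by limma-voom). Limma on log2(TPM + 1) did not call it (adjusted p = 0.0651). Tumour-bearing 1 and 3 were high and the other 3 much lower, and all 5 were above the controls.

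Cyp4f16 rose from 11.6, 10.6 and 11.1 TPM to 16.3, 21.2, 20.8, 17.8 and 13.9 TPM (log2 fold change 1.36, SE 0.18, adjusted p = 0.000197). Cyp4f13 rose from 17.03 to 19.9 TPM to 20.9 to 41.7 TPM (log2 fold change 0.86, SE 0.24, adjusted p = 0.0127). Cyp4f39, which hydroxylates the very long fatty acids of the skin barrier, fell from 3.20 to 4.80 TPM to 0.00 to 0.51 TPM (log2 fold change -4.54, adjusted p = 0.00146). Cyp4f17 fell from 3.81 to 4.51 TPM to 0.86 to 1.60 TPM (log2 fold change -0.99, adjusted p = 0.0157). Without control 2 the adjusted p of Cyp4f13 was 0.0580, and without control 1 or 3 that of Cyp4f17 was 0.0623 or 0.0526. Cyp4f18, which lies outside the cluster on chromosome 8 and inactivates a leukotriene in neutrophils, had 5.27 to 7.85 TPM against 1.77 to 8.96 TPM (adjusted p = 0.312). Of the 100-base stretches of Cyp4f16, 5.95% also occur elsewhere, chiefly in Cyp4f37, against at most 0.06% for the other Cyp4f genes tested.

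**Figure D3:**
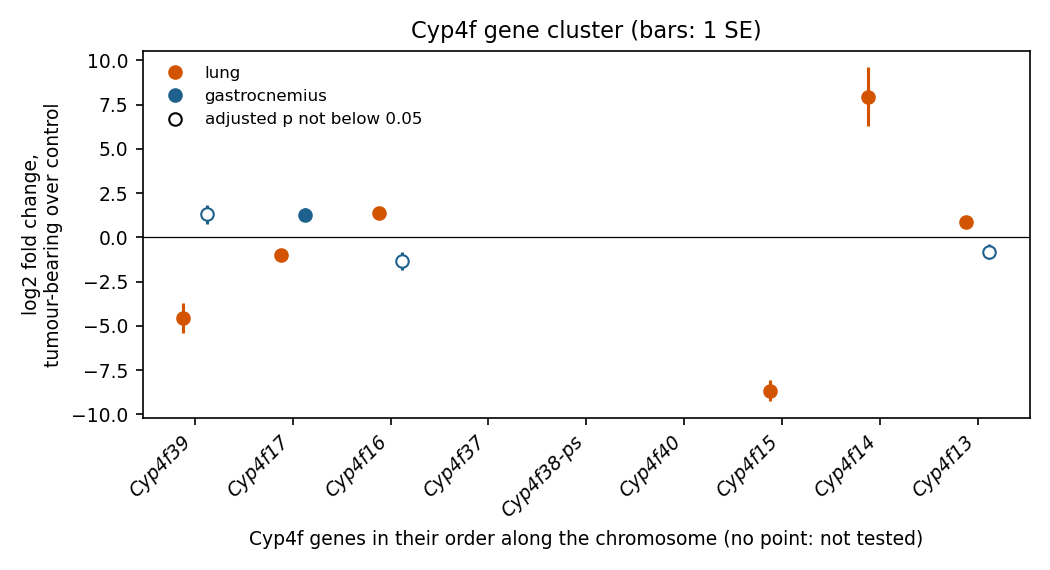
Log2 fold change of tumour-bearing over control (points, with bars of 1 SE) for Cyp4f genes in their order along chromosome 17, in lung and in gastrocnemius. Filled points passed an adjusted p of 0.05; in lung Cyp4f39, Cyp4f17 and Cyp4f15 lie below 0 and Cyp4f16, Cyp4f14 and Cyp4f13 above it, and in muscle Cyp4f17 lies above 0.

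In the sterol and bile acid class all 5 tested members fell in lung, where 29.3% of all genes tested fell, and Cyp7a1 was at 0. Of the 5, Cyp8b1 entered the test only through the controls. Cyp27a1 had 21.3, 17.7 and 18.3 TPM in the controls and 0.80, 0.79, 1.43, 1.07 and 0.17 TPM in tumour-bearing lung (log2 fold change -4.16, SE 0.49, adjusted p = 0.000109). Cyp8b1, the hydroxylase that directs bile acid synthesis to cholic acid, went from 2.45, 2.15 and 2.48 TPM to at most 0.10 TPM (log2 fold change -5.43, SE 0.66, adjusted p = 0.000137), with 17 counts over the 5 libraries. Without tumour-bearing 3 its value was -6.08. The other falls were small: Cyp46a1, the cholesterol hydroxylase of brain, by 1.32 (adjusted p = 0.0177), Cyp7b1, which inactivates oxysterols, by 1.13 (adjusted p = 0.0493) and Cyp39a1, another oxysterol hydroxylase, by 0.47 on the log2 scale (adjusted p = 0.0285). Leaving out any 1 control ended the Cyp7b1 and Cyp39a1 calls, with an adjusted p from 0.109 to 0.122 and from 0.0703 to 0.135, and leaving out control 2 or 3 ended that of Cyp46a1 (0.0646 and 0.0732). Cyp39a1 also missed the threshold without tumour-bearing 4 (0.0598), and Cyp7b1 without tumour-bearing 1, 2 or 4 (0.0549, 0.0687 and 0.101).

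Of 6 steroid hormone enzymes only 2 were tested, and both rose, where 30.4% of all genes tested rose. The other 4 had too few counts. Cyp21a1 entered the test only through the tumour-bearing group. Cyp11a1, the mitochondrial enzyme that cuts the side chain of cholesterol to start steroid synthesis, had 0.16, 0.24 and 0.34 TPM in the controls and 23.3, 8.57, 1.02, 14.9 and 13.5 TPM in tumour-bearing lung (log2 fold change 5.92, SE 1.00, adjusted p = 0.000884). Tumour-bearing 3 was lowest but still above each control. Cyp21a1, the steroid hydroxylase of the adrenal cortex, had 1 count in the 3 controls and 5123 in tumour-bearing lung, a ratio of 3020 (exact 95% interval 543 to 119000), with 1.70, 32.1, 4.78, 3.25 and 19.1 TPM. Its fitted log2 fold change of 11.38 (adjusted p = 0.000528) was 10.66 without tumour-bearing 2 and 13.17 without control 3, which holds the lone control count. The library with the most Cyp11a1, tumour-bearing 1, had the least Cyp21a1. Cyp17a1, which leads to androgens in the gonads, had 9 counts in the controls and 2 in tumour-bearing lung, and Star, which brings cholesterol to Cyp11a1, had 1.59 to 1.70 TPM against 0.87 to 1.48 TPM (adjusted p = 0.797).

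Of 8 adrenal and gonad markers, 1 rose in tumour-bearing lung (Akr1b7, an aldose reductase-like gene also known from gut), 1 fell (Hsd3b2), and Hsd3b1, Mc2r and Fshr were at 0 there. Their sum went from 6.70 to 7.50 CPM to 280, 15.2, 39.2, 354 and 60.4 CPM, most of it Akr1b7. Nr5a1, the factor that defines steroid-making cells, was at most 0.06 TPM in every lung library. Akr1b7, Hsd3b2, Nr5a1 and Star were named after their values were seen.

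Vitamin D enzymes were low throughout. Cyp2r1, which makes the circulating form of the vitamin, fell from 1.42, 1.45 and 1.61 TPM to 0.10, 0.13, 0.06, 0.05 and 0.10 TPM (log2 fold change -3.69, SE 0.40, adjusted p = 7.5e-05). Cyp27b1, which makes the active hormone, had 0.07 to 0.14 TPM in the controls and 0.06 to 0.33 TPM in tumour-bearing lung (adjusted p = 0.254), and Cyp24a1, which breaks it down, had 0 and 6 counts and was not tested. Of the retinoic acid hydroxylases, Cyp26a1 rose, from 8 counts in the controls to 86 in tumour-bearing lung (0.01 to 0.06 TPM against 0.06 to 0.46 TPM, log2 fold change 2.82, SE 0.85, adjusted p = 0.0179). Leaving out control 2 or 3, or using log2(TPM + 1), ended that call (adjusted p = 0.0751, 0.0554 and 0.0895), and without tumour-bearing 1, 2 or 5 the gene fell under the count filter. Cyp26b1, the main form in lung, had 6.49, 11.96 and 11.98 TPM in the controls and 4.07, 1.07, 1.19, 5.91 and 1.91 TPM in tumour-bearing lung, a log2 fold change of -1.41 (adjusted p = 0.0558) that passed in 8 of 17 alternatives, among them DESeq2 (-1.46, adjusted p = 0.0235), limma-voom (-1.68, adjusted p = 0.0187), both other edgeR scalings (adjusted p = 0.0496 and 0.0448) and the fit without tumour-bearing 4 (-1.86, adjusted p = 0.0132). Cyp20a1 did not pass, with 18.8 to 20.4 TPM against 12.02 to 21.1 TPM (log2 fold change 0.13, adjusted p = 0.557; -0.32 on the log2(TPM + 1) scale).

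**Figure D4:**
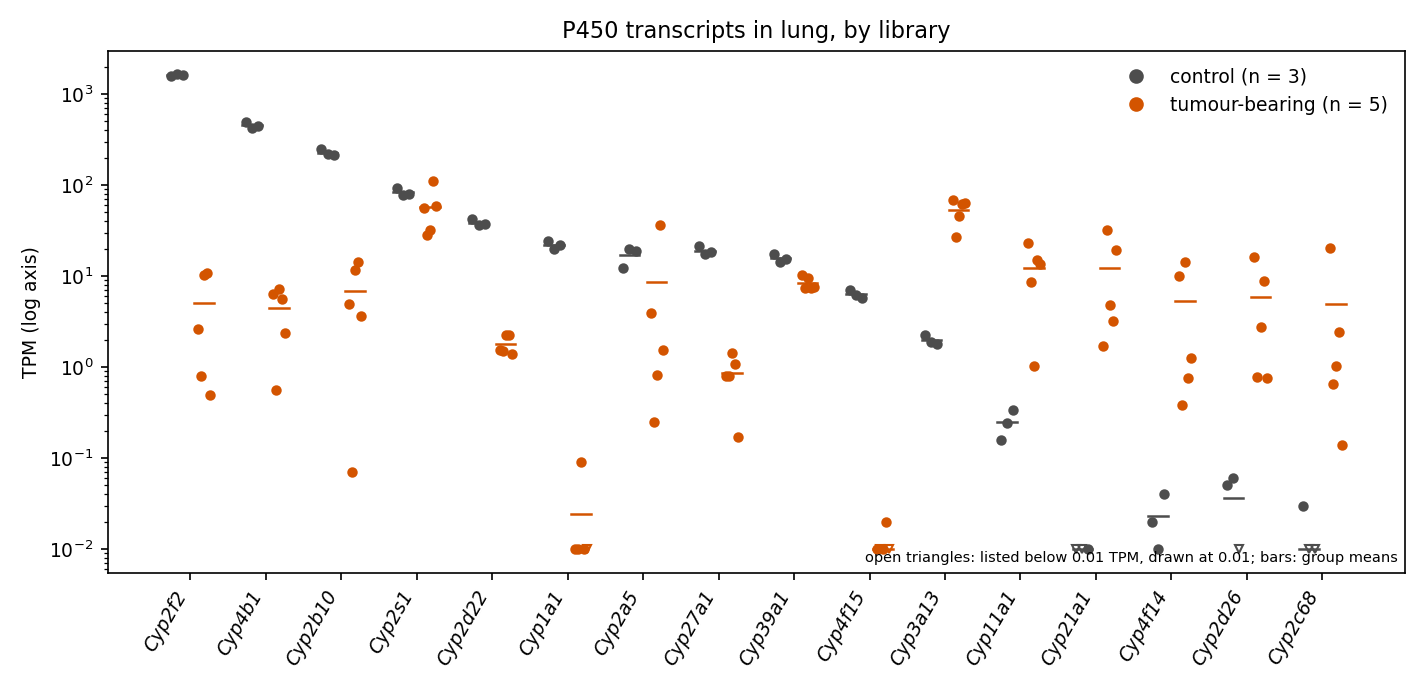
TPM of 16 P450 genes in each lung library (points, log axis; horizontal bars are group means; open triangles mark values listed below 0.01 TPM). Cyp2f2 falls from 1572 to 1641 TPM in the controls to 0.49 to 10.9 TPM, while Cyp3a13, Cyp11a1 and Cyp21a1 are higher in all 5 tumour-bearing libraries, and Cyp2a5 spreads from 0.25 to 36.2 TPM in them.

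Markers of other cell types moved with these groups. Of all genes tested in lung 30.4% were higher and 29.3% lower. Club cell genes summed to 24800 to 29000 CPM in control lung and to 465.8, 236, 1054, 293 and 73.6 CPM in tumour-bearing lung, with 7 of 8 lower, and ciliated cell genes went from 1740 to 1900 CPM to 8.63 to 47.2 CPM, with all 8 lower. All 9 alveolar type 2, 8 alveolar type 1 and 8 endothelial markers were lower as well, and 4 of 8 fibroblast markers. Beside the members that rose, 7 of 8 enterocyte markers, Cdx2 among them, were higher (7.40 to 9.20 CPM in the controls, 2792, 1659, 1739, 2873 and 2308 CPM in tumour-bearing lung). So were 6 of 8 hepatocyte markers (2.71 to 2.73 CPM against 2460, 219, 494, 1527 and 191 CPM). Of the 7 hepatocyte markers tested, 1 did not pass, and its tumour-bearing values all lay below the controls. The enterocyte marker Cdx1 and the hepatocyte marker Cps1 were at 0 in the controls and at most 0.04 and 0.57 TPM in tumour-bearing lung. Tumour-bearing 1 and 4 were highest in the enterocyte and hepatocyte sums. Among the 11 members that rose, 4 were highest in tumour-bearing 1, 3 in tumour-bearing 2, 2 in tumour-bearing 4 and 1 each in 3 and 5. The part of these cell types in the P450 values was not tested, and in bulk RNA fewer cells of a type and less RNA per cell cannot be told apart.

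Some members with too few counts for a test were also seen in tumour-bearing lung only. Of the untested members, 10 had no count in control lung and more than 3 in tumour-bearing lung. Their counts together were 262, 5, 30, 124 and 6 in the 5 libraries, so tumour-bearing 1 and 4 held most of them. They included the 2C gene Cyp2c70 (110 counts, at least 21.6-fold), Cyp2d34 (91 counts), Cyp2w1 (51 counts) and 3 members of the 4A subfamily, which hydroxylates fatty acids under control of the receptor PPAR alpha: Cyp4a14 (45 counts), Cyp4a10 (41 counts) and Cyp4a31 (36 counts). Cyp3a11, the main 3A enzyme of mouse liver, had 31 counts, 29 of them in tumour-bearing 4. These genes were named after their values were seen.

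Among 7 electron donors tested in lung, Por, the reductase that serves all P450 enzymes of the endoplasmic reticulum, fell and the cytochrome b5 gene Cyb5b rose, and 5 did not pass. Por had 215, 187 and 184 TPM in the controls and 50.5, 47.6, 63.6, 91.1 and 84.3 TPM in tumour-bearing lung (log2 fold change -0.87, SE 0.24, adjusted p = 0.0119), without overlap. Cyb5b changed by 0.62 (adjusted p = 0.00503) but did not pass on the log2(TPM + 1) scale (0.17, adjusted p = 0.229). Of 20 xenobiotic sensors and other detoxifying enzymes, 2 rose and 13 fell (median log2 fold change -1.44), where 30.4% and 29.3% of all genes tested did. Fmo1, a flavin monooxygenase, fell from 204 to 255 TPM to 0.44 to 3.52 TPM (log2 fold change -6.81, adjusted p = 8.56e-06) and Ces1g, a carboxylesterase, from 2.63 to 2.75 TPM to 0.01 to 0.04 TPM (log2 fold change -6.13, adjusted p = 4.47e-06). The aryl hydrocarbon receptor gene Ahr fell as well, from 33.2, 31.5 and 33.0 TPM to 10.2, 3.98, 8.69, 11.1 and 7.96 TPM (log2 fold change -1.52, adjusted p = 0.00144). The 2 that rose were Gsta1, a glutathione transferase, from 1.06 to 1.32 TPM to 18.8 to 300 TPM (adjusted p = 0.00029), and Nr1i2, which encodes the xenobiotic receptor PXR, from 0.34 to 0.38 TPM to 0.51 to 3.42 TPM (adjusted p = 0.0171). The Nr1i2 call needed all 3 controls (adjusted p 0.0559 to 0.0610 with 1 left out), and its log2 fold change of 2.37 was 1.76 without tumour-bearing 1. Ahr, Gsta1 and Nr1i2 were named after their values were seen.

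Cyp51, the sterol demethylase of cholesterol synthesis, carries a symbol outside the pattern and went against the sterol-breaking members. It rose in lung from 9.71, 10.4 and 10.5 TPM to 41.4, 52.4, 41.9, 37.1 and 31.9 TPM (log2 fold change 2.43, SE 0.18, adjusted p = 1.03e-05). Beside it, 15 of 20 genes of cholesterol synthesis and its control rose and 1 fell (median 1.02), where 30.4% and 29.3% of all genes tested did. Among those that rose were Sqle, by 2.11, and Msmo1, by 2.58 (adjusted p = 1.67e-05 and 2.98e-05). Among 10 genes of oxysterol and bile acid sensing, 1 rose and 4 fell: Nr1h4, the bile acid receptor FXR, changed by 5.24 (adjusted p = 0.000187) and Abca1, a cholesterol exporter switched on by oxysterols, by -2.27 (adjusted p = 0.000132). The prostanoid P450 genes Ptgis (prostacyclin synthase, log2 fold change -3.31, adjusted p = 0.000125) and Tbxas1 (thromboxane synthase, -1.04, adjusted p = 0.0399) both fell, but Tbxas1 missed the threshold when any 1 control was left out (adjusted p = 0.0580 to 0.130) or tumour-bearing 1, 2 or 4 (0.0710, 0.0757 and 0.0508). Of 16 partners in vitamin D and retinoid handling, 6 rose and 6 fell (37.5% each), beside 30.4% and 29.3% of all genes tested. Stra6, a retinol uptake receptor, rose by 8.09 (adjusted p = 6.93e-06) and Rarb, a retinoic acid receptor and target, fell by 5.54 (adjusted p = 7.33e-06), both on the log2 scale.

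The muscle comparison addressed how gastrocnemius changes in mice that carry lung tumours. Cyp27a1 was the dominant P450 transcript in both groups and rose, Cyp1b1 and Cyp4f17 rose from low levels, and Cyp1a1 fell. Of the 20 members tested, 3 rose, 1 fell and 16 did not pass. Over all genes tested in muscle, 15.3% were called, 8.53% higher and 6.75% lower, against 15% higher and 5% lower among the tested members. The median log2 fold change was -0.23 among these members and -0.03 over all genes, and groups did not overlap for 3 higher and 8 lower members, where 21.1% and 22% of all genes separated. Cyp1a1 entered the test only through the controls, where it is high, and among the 15 members above the count filter in both groups 3 rose, 0 fell and 12 did not pass. Here too no share of all genes above the filter in both groups was counted. Upper-quartile scaling put the median of all genes at -0.25, and there 1 member was higher and 2 were lower. None of the 4 calls was kept when any 1 of the 3 control libraries was left out, nor with limma on log2(TPM + 1), although each kept its direction. Over all genes, 33 to 86 were called higher and 73 to 157 lower with 1 control left out, against 1226 and 970 with all 6 libraries.

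Cyp27a1 had 24.2, 17.1 and 15.5 TPM in the control muscles and 83.1, 52.3 and 35.1 TPM in the tumour-bearing ones. In CPM it had 36.5, 36.8 and 43.9 against 128, 93.99 and 106, without overlap, a 2.80-fold rise (log2 fold change 1.49, SE 0.26, adjusted p = 0.0130). Without control 1, 2 or 3 the log2 fold change was 1.45, 1.44 or 1.57, with an adjusted p of 0.0665, 0.0862 or 0.0691, so its size held while the call did not. Its share of muscle P450 TPM was 43.4% in the controls and 71.2% in tumour-bearing muscle.

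Cyp1b1 and Cyp1a1, both targets of the aryl hydrocarbon receptor, went opposite ways at low levels. Cyp1b1 had 0.56, 0.75 and 1.10 CPM in the controls and 2.07, 2.21 and 2.66 CPM in tumour-bearing muscle (log2 fold change 1.54, SE 0.39, adjusted p = 0.0343). Cyp1a1 had 0.90, 0.57 and 0.87 CPM in the controls and 0.06, 0.26 and 0.12 CPM in tumour-bearing muscle, or 84 against 16 counts (log2 fold change -2.42, SE 0.60, adjusted p = 0.0329). Cyp4f17 had 1.57, 1.11 and 1.60 CPM against 4.46, 2.11 and 3.90 CPM (log2 fold change 1.29, SE 0.38, adjusted p = 0.0499), a call lost in 9 of 15 alternatives, among them limma-voom (adjusted p = 0.0646), upper-quartile scaling (0.0849) and a mean of at least 1 CPM (0.0575). Upper-quartile scaling also ended the Cyp1b1 call (adjusted p = 0.0680). The calls of Cyp1b1, Cyp1a1 and Cyp4f17 also failed without tumour-bearing 3, where the adjusted p was 0.0652, 0.0713 and 0.0904 in that order, and those of Cyp1a1 and Cyp4f17 failed without tumour-bearing 1 (0.0688 and 0.108). Without tumour-bearing 2, which was closest to the controls, the log2 fold change of Cyp1a1 was -3.16.

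**Figure D5:**
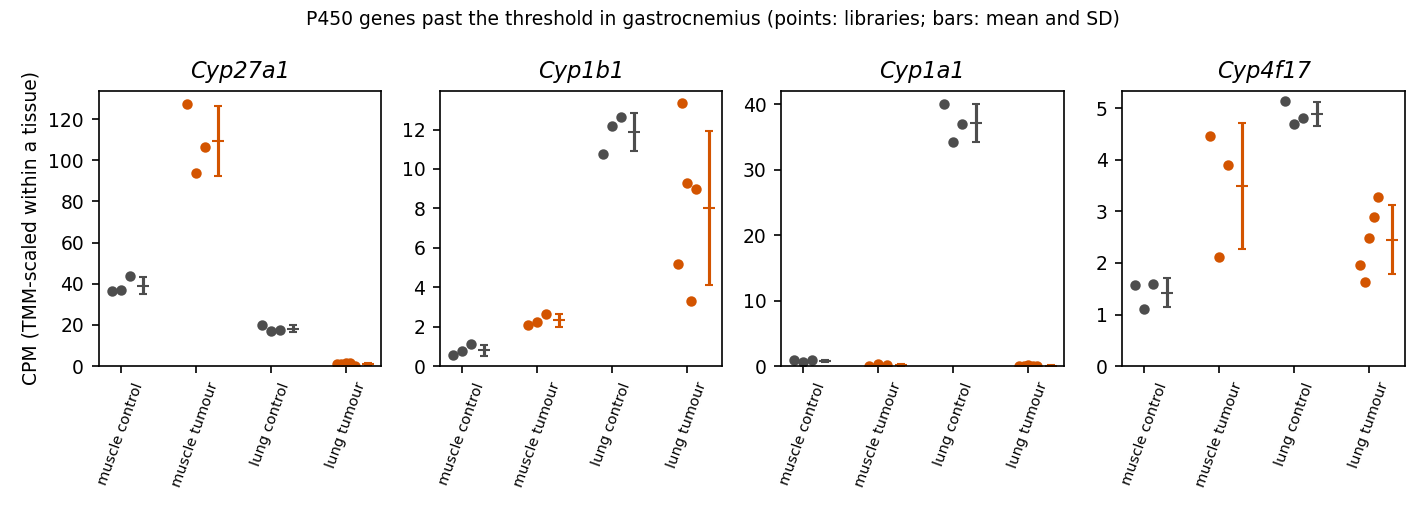
CPM of Cyp27a1, Cyp1b1, Cyp1a1 and Cyp4f17 in each library of the 4 groups (points; the bar beside them is the mean with SD; CPM are scaled within a tissue). In muscle Cyp27a1 lies at 36.5 to 43.9 CPM in the controls and 93.99 to 128 CPM in tumour-bearing mice, and in lung it lies lower in the tumour-bearing group.

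The other muscle members were mostly near or under 1 TPM. Cyp4f13 had 11.4, 7.18 and 9.0 TPM in the controls and 2.85, 7.40 and 5.81 TPM in tumour-bearing muscle (log2 fold change -0.81, adjusted p = 0.215), and Cyp2d22 4.33, 3.72 and 3.72 against 6.05, 4.75 and 7.49 TPM (0.57, adjusted p = 0.314). Cyp26b1, which breaks down retinoic acid, had 1.44, 0.90 and 1.36 TPM against 0.86, 0.75 and 0.41 TPM (log2 fold change -1.10, adjusted p = 0.0580), a value that passed with upper-quartile scaling (-1.33, adjusted p = 0.0449), in DESeq2 (-1.07, adjusted p = 0.0265) and with no filter on low counts. Of the vitamin D and steroid hormone classes no member could be tested in muscle, and of the 49 xenobiotic members only 5 could. Fat cell markers summed to 86.2 to 113 CPM in control muscle and to 209 to 563 CPM in tumour-bearing muscle, with 1 of 8 called higher and 1 lower. The 7 tested fat cell markers had a median log2 fold change of -1.13, so most of them went against the sum. Fibroblast markers went from 848 to 1240 CPM to 411 to 784 CPM, with 4 of 8 lower, and endothelial markers from 166 to 186 CPM to 125 to 150 CPM, with 1 of 8 lower. Of all genes tested in muscle 8.53% were called higher and 6.75% lower. The part of fat cells, fibroblasts and endothelium in the muscle P450 values was not tested.

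Partners in muscle differed from those in lung in several values. Of all genes tested in muscle 8.53% were called higher and 6.75% lower. Por rose from 9.69, 10.5 and 12.1 CPM to 56.9, 15.8 and 33.5 CPM (log2 fold change 1.72, SE 0.43, adjusted p = 0.0327; without tumour-bearing 1, 1.22 and 0.0571). Fmo2, a flavin monooxygenase, rose by 2.15 (adjusted p = 0.0171) and the nuclear receptor partner Rxra by 1.02 (adjusted p = 0.0453), the 2 of 20 xenobiotic sensors and enzymes that passed. Cyp51 fell by 1.57 (adjusted p = 0.0170), and of the 20 cholesterol synthesis genes 5 fell, among them Hmgcs1 by 1.56 (adjusted p = 0.0169), while Fdft1 rose by 1.81 (adjusted p = 0.0180). The oxysterol receptor gene Nr1h2 rose by 1.38 (adjusted p = 0.0229), the 1 of 10 in its list to pass. In vitamin D and retinoid handling 2 rose and 4 fell, with the retinal dehydrogenases Aldh1a1 and Aldh1a2 at 1.31 and -2.51 (adjusted p = 0.0171 and 0.0158, and -3.18 for Aldh1a2 without tumour-bearing 2). Without tumour-bearing 1 or 3 the Rxra call was lost (adjusted p = 0.0592 and 0.0689), and without tumour-bearing 3 that of Por (0.0633). All of these calls were lost without control 2 or without control 3, like those of the members.

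The tumour effect in lung was set against that in muscle by testing the difference of both log2 fold changes in 1 fit of all 14 libraries. Of 39 members, 17 passed, 5 with a higher value in lung and 12 with a lower one, where 35.6% of all genes did, 16.6% and 19% in these directions. With limma on log2(TPM + 1) there were 5 and 20, where 12.1% and 33.4% of all genes passed in these directions. With DESeq2 there were 9 and 13, beside 21.7% and 20.8% of all genes. Cyp27a1 had opposite calls, higher in muscle and lower in lung, with a difference of -5.64 (SE 0.55, adjusted p = 5.2e-06). Cyp4f17 likewise rose in muscle and fell in lung (difference -2.28, SE 0.48, adjusted p = 0.00237). Cyp51 was the opposite, higher in lung and lower in muscle (difference 3.99, SE 0.30, adjusted p = 7.14e-07), and Por fell in lung and rose in muscle (-2.58, SE 0.48, adjusted p = 0.000923).

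Cyp1a1 fell in both tissues, by more in lung (difference -6.95, SE 1.05, adjusted p = 0.000191, or -8.55 without lung tumour-bearing 3 and -6.11 without muscle tumour-bearing 2), and was the only member called in the same direction in both. Cyp1b1 rose in muscle and did not pass in lung, and the difference was -2.11 (SE 0.59, adjusted p = 0.0124). Cyp2d22 fell in lung and did not pass in muscle (difference -4.41, SE 0.43, adjusted p = 5.37e-06). The Cyp4f neighbours Cyp4f16 and Cyp4f13 rose in lung and did not pass in muscle, with differences of 2.65 and 1.65 (adjusted p = 0.000666 and 0.0209). The Cyp4f13 difference missed the threshold without muscle control 3 or lung control 2 (adjusted p = 0.0640 and 0.0519). For Cyp3a13 and Cyp11a1 the differences were 5.61 and 6.37 (adjusted p = 0.0024 and 0.00163), although muscle held at most 16 counts of either in a group. With limma-voom the Cyp11a1 difference did not pass (adjusted p = 0.0889). The Cyp3a13 difference ran from 4.82 to 6.20 over the fits that left out 1 muscle library.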

How the data were processed

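RNA from lung and gastrocnemius was read at 100 bases after library preparation with the MGIEasy RNA Directional kit, which keeps strand, per the labels' protocols. Per the submitters' processing notes, Trim Galore, STAR 2.7.9a and RSEM 1.3.3 were used; the sources name no genome build, annotation or strand setting. The authors deposited, for each library, RSEM expected counts, estimates in which reads that fit several genes are shared out, and TPM, which are divided by effective length. Between 6.28% and 11.9% of expected counts per library were not whole, and all were rounded. Symbols were found for 52083 of 55416 identifiers.

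For each tissue a model was fitted with edgeR 4.0.16 under R 4.3.3, using TMM scaling, the filterByExpr filter and the two-sided quasi-likelihood test, with Benjamini-Hochberg adjustment over all genes tested and a threshold of 0.05; SE is the log2 fold change divided by the square root of F. The difference between tissues was tested in 1 fit of 14 libraries. At these depths the filter needed 0.187 CPM in 3 lung libraries or 0.292 CPM in 3 muscle libraries. CPM are TMM-scaled within a tissue. Counting intervals and the floor of 3 counts over a group cover counting error only. Fits were tested on simulated counts. Alternatives were RLE and upper-quartile scaling, DESeq2 1.42.0, limma 3.58.1 (voom, and log2(TPM + 1)), other filters, a replicate block, all libraries in 1 fit, and leaving out each library. Chi-square values per degree of freedom between replicates were 21.3 to 480, so none was a duplicate.

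Promoters and gene order came from RefSeq (GRCm38.p6), and shared 100-base stretches from GENCODE M21 transcripts. Named genes are the members past the threshold, the highest member of each class, Cyp51, Tbxas1, Ptgis and the 2 partners with the smallest p in each list. Others were named after their values were seen. Not all of these are marked where they appear, among them Cyp4f18, Cyp27b1, Cyp17a1 and Cyp24a1 in lung. Members and lists were chosen with earlier results of these data known.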

Additional observations from a re-analysis of the deposited data

Results flagged for a closer look

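Among the 5 tumour-bearing lung libraries, 7 of 39 tested P450 genes had 1 library far from the rest, with a gap above 0.71 of the range in CPM. In all 7 it was the highest library. How often chance gives such a gap in low, uneven counts was not worked out, so the number of flags is not set against chance. Tumour-bearing 1 stood high for Cyp2c68 (28.43 CPM), Cyp2c65 (11.42 CPM), Cyp2u1 (1.05 CPM) and Cyp27b1 (0.556 CPM). Tumour-bearing 2 stood high for Cyp2e1 (2.68 CPM) and tumour-bearing 3 for Cyp1a1 (0.187 CPM). Tumour-bearing 4 stood high for Cyp2a5, with 62.98 CPM against 0.377 to 4.321 CPM in the other 4.

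The tumour effect differed between tissues in 17 members by the interaction test, which 35.6% of all genes tested also passed. The log2 difference, lung minus muscle, was positive for Cyp11a1 (6.37), Cyp3a13 (5.61), Cyp4f16 (2.65) and Cyp4f13 (1.65). It was also positive for Cyp21a1, but muscle held 7 counts in the controls and 0 in tumour-bearing mice, so the fitted 17.01 depends on how the fit treats 0 and gives no size. It was negative for Cyp4f15 (-7.23), Cyp1a1 (-6.95), Cyp4b1 (-6.78), Cyp2f2 (-6.14), Cyp4f39 (-5.85), Cyp27a1 (-5.64), Cyp2j9 (-4.63), Cyp2r1 (-4.51), Cyp2d22 (-4.41), Cyp2j6 (-2.3), Cyp4f17 (-2.28) and Cyp1b1 (-2.11). Muscle held 5 counts of Cyp4f15 in the controls and 2 in tumour-bearing mice, and 2 and 4 of Cyp2r1. Cyp11a1 (16 and 12) and Cyp3a13 (5 and 4) were also low there. None of these genes could be tested in muscle alone, so the muscle part of their differences is poorly measured. The Cyp2r1 difference ran from -3.12 without muscle tumour-bearing 2 to -8.69 without muscle control 2, and did not pass without muscle control 1 or tumour-bearing 2 or with the replicate block (adjusted p = 0.0527, 0.234 and 0.0518), and that of Cyp2f2 did not pass without muscle tumour-bearing 1 (0.0546).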

How the results depend on the processing

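In lung, counts of members higher and lower, 11 and 19 in edgeR, stayed within 1.5 times under all other settings but limma on log2(TPM + 1), which called 6 higher; leaving out 1 library gave 8 to 11 higher and 14 to 19 lower. On that scale 18.6% of all genes were higher and 41.4% lower, against 30.4% and 29.3%. In muscle, where 3 were higher and 1 lower, upper-quartile scaling gave 1 and 2, limma on log2(TPM + 1) gave 0 and 0, and leaving out 1 library gave 0 to 3 in each direction. Over all genes, upper-quartile scaling called 5.29% higher and 7.51% lower there, and limma on log2(TPM + 1) 1.09% and 1.8%. The muscle count lower was 3 in DESeq2, with no filter and with all 14 libraries in 1 fit, 2 with limma-voom and 0 with a mean of at least 1 CPM. In that order, 10.9%, 6.79%, 7.96%, 7.72% and 6.68% of all genes were called lower, against 6.75% in the main fit. Members that differed between tissues numbered 17, and 16 to 19 with 1 library left out.

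With the replicate block the counts were 11 higher and 19 lower in lung, 3 and 2 in muscle, and 6 and 13 between tissues. Of all genes the block called 25.6% higher and 27.8% lower in lung, 11.3% and 11.7% in muscle, and 15% and 17.7% between tissues. The lung calls were not all the same: Cyp2u1, Cyp39a1 and Cyp7b1 were lost (adjusted p = 0.0524, 0.112 and 0.126), and Cyp2s1, Cyp2a5 and Cyp26b1 were called lower (-0.77, -4.13 and -2.17). Samples that share a number did not deviate together in every pair (correlations 0.362, -0.0403 and 0.409 in muscle, and 0.0556, 0.0875 and -0.00327 in lung), nor did each correlate best with its own number, so the numbers were not taken to pair samples.

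Directions reversed for Cyp2j9 in muscle (0.09; -0.19 with upper-quartile scaling, -0.32 to 0.56 with 1 library left out), Ptgis in muscle (-0.21; -1.66 to 0.31 with 1 left out), Cyp2s1 in lung (-0.08; -0.45 to 0.12 with 1 left out, -0.77 and called with the replicate block) and Cyp20a1 in lung (0.13; -0.32 on log2(TPM + 1)), none of them called in edgeR's fit of all libraries of the tissue without the block. Under limma-voom 10 called lung members moved by over 1.5 times and kept their direction. Depth limits members of a few counts per library; for other changes the cause was not tested.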
